A study of Mus musculus with 6 samples.

Results

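Levels of 9 transcription factors of endothelium and early blood were compared between tissue beneath and tissue above the mouse aorta at embryonic day 11.5. The 9 genes were the SoxF factors Sox7, Sox17 and Sox18, the ETS factors Erg, Fli1 and Ets1, and Tal1, Lyl1 and Lmo2. They were taken by gene symbol, and all 9 had 1 probe set each among the 24011 gene symbols of the array's platform table. Ventral aortic tissue lay directly under the vessel, and dorsal aortic tissue filled the space up to the notochord. The 2 tissues were laser-microdissected from cryosections of unfixed C57Bl/6 embryos, for which the labels name no mutation, transgene or treatment. Each tissue was measured on 3 Affymetrix arrays from amplified RNA, labelled as biological replicates 1 to 3, and the labels give no number of embryos per array. So few arrays limit how precise the values can be. All levels are the log2 values that the authors deposited, and a difference is ventral minus dorsal on that log2 scale.

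SoxF proteins carry a high-mobility-group box and act in endothelial cells, where they take part in arterial, venous and lymphatic identity. ETS proteins bind a GGAA core that is present in the enhancers of most endothelial genes. Tal1 and Lyl1 are related basic helix-loop-helix proteins that pair with E proteins, and Lmo2 is a LIM-domain bridge that joins them to GATA factors without binding DNA itself. In the aorta of this stage, hemogenic endothelial cells of the floor bud off hematopoietic cells, and several of these factors are needed for that step in the mouse.

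The promoters of the blood-forming pair Lyl1 and Tal1 are shown because they hold the core letters that ETS proteins bind. RefSeq sequence of build GRCm38.p6 was at hand for 3 of the 9 genes, Erg, Tal1 and Lyl1. The window held the 250 bases before the transcription start nearest the gene's 5′ end. It was searched on both strands for GGAA, the core letters of ETS binding. It was searched likewise for ACAAT, those of Sox binding. Matches on either strand are in capitals, and no match of one motif shared a base with a match of the other. The windows are chr8:84701207-84701456 on the plus strand for Lyl1 and chr4:115056176-115056425 on the plus strand for Tal1.
Lyl1: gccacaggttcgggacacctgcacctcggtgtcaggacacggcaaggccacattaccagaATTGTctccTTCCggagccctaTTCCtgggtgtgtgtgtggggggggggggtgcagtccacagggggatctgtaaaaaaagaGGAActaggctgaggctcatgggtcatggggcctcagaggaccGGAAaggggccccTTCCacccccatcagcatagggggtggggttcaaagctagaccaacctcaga
Tal1: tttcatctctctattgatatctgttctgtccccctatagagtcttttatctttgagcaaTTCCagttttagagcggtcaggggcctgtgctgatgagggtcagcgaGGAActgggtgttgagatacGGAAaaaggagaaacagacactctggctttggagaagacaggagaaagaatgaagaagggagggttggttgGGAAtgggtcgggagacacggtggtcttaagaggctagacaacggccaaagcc
The Lyl1 window held 5 GGAA matches and 1 ACAAT match, and the Tal1 window held 4 GGAA matches and 0 ACAAT matches. The Erg window at chr16:95586594-95586843 on the minus strand held 0 of each. Of 32851 promoter windows of the same length, 93.4% held a GGAA match and 27.7% an ACAAT match. In the same set 18.0% held at least as many GGAA matches as Lyl1 and 33.4% at least as many as Tal1. A match is a run of letters and not a measured binding site.

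None of the 9 factors passed the test between ventral and dorsal tissue. On these arrays, Sox18 and Lmo2 were higher on each of the 3 ventral arrays than on any dorsal array, by 1.62-fold and 1.36-fold on average. Sox7 was higher on each ventral array too, but all its dorsal values lay below the brightness filter of 4.52 (log2), and it passed that filter through its ventral values. Fli1 was lower on each ventral array than on any dorsal array, with dorsal levels 1.74-fold those of ventral tissue. Sox17 and Tal1 lay close to equal levels on the 2 sides. In limma's moderated test 0 of 9 passed an adjusted p of 0.05, where 0.515% of the 12028 genes tested did, and the adjusted p of the 9 ran from 0.228 to 0.990. At an unadjusted p under 0.05, 4 of 9 passed, 3 higher and 1 lower in ventral tissue, against 10.7% of all genes (5.6% higher and 5.14% lower). Groups that did not overlap were found for 4 of 9 genes, against 15.4% of all genes (7.5% higher and 7.88% lower). Without Sox7 both counts were 3 of 8. The 3 same-numbered pairs had the same sign for 6 of 9 genes, against 32.2% of all genes. These 6 include Sox7, which passed the filter through its ventral values.

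**Figure D1:**
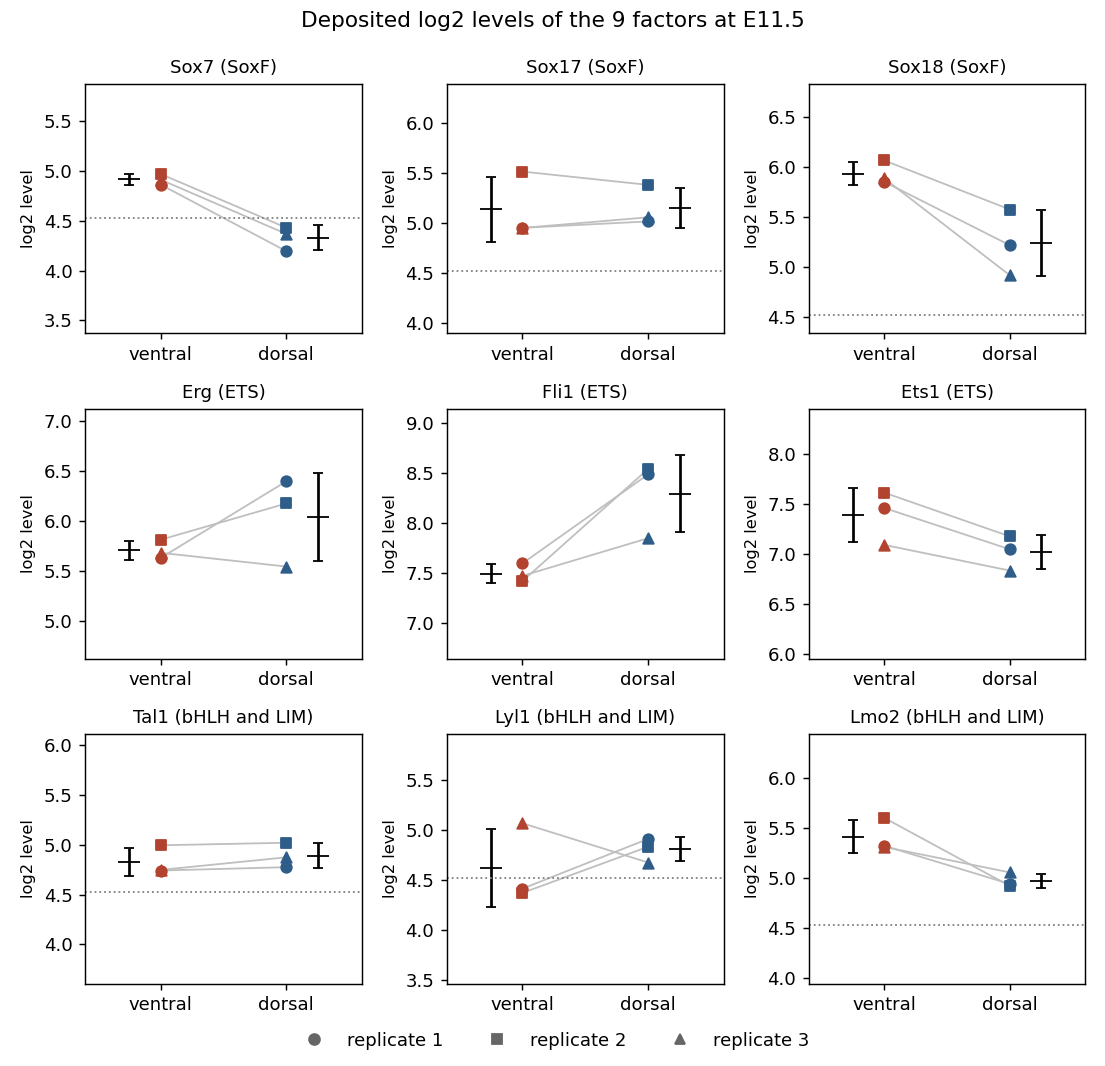
Deposited log2 level (vertical axis, the same span of values in each panel) of each factor on the ventral and dorsal arrays. Points are arrays, grey lines join arrays of the same replicate number, bars beside them are the mean and SD of 3 arrays, and the dotted line is the filter level of 4.52. Sox7, Sox18 and Lmo2 points lie higher in ventral tissue and Fli1 points higher in dorsal tissue, with no overlap.

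Among the SoxF genes, Sox18 had the highest difference. Sox18, whose protein switches on Prox1 in venous cells that turn lymphatic, stood at 5.85, 6.07 and 5.89 on ventral arrays 1, 2 and 3, against 5.22, 5.57 and 4.92 on dorsal arrays 1, 2 and 3. The lowest ventral array lay above the highest dorsal array, and ventral arrays were the less spread, with an SD of 0.12 against 0.33 (n = 3 each). The log2 difference was 0.70 ± 0.19 (SE; adjusted p = 0.236), with a 95% interval from 0.25 to 1.15. Sox7, which is active in early endothelium and hemogenic cells, had 4.86, 4.97 and 4.91 in ventral tissue, against 4.19, 4.43 and 4.37 in dorsal tissue. These arrays did not overlap either, and the 3 pairs of same-numbered arrays differed by similar amounts, 0.67, 0.54 and 0.54. The difference of Sox7 was 0.58 ± 0.17 (adjusted p = 0.279). All 3 dorsal values of Sox7 lay below 4.52, the median level of all probe sets, so this difference describes array values near background and no fold is given.

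Sox17 is the SoxF factor of arterial endothelium and of blood-forming clusters. It stood at 4.96, 5.52 and 4.95 in ventral tissue, against 5.02, 5.38 and 5.06 in dorsal tissue. Replicate 2 was the highest array on both sides, and the groups overlapped throughout. The log2 difference of Sox17 was −0.01 ± 0.17 (adjusted p = 0.990), and its 95% interval ran from −0.43 to 0.40. Within each array, Sox17 minus Sox18 was −0.90, −0.55 and −0.93 in ventral tissue, against −0.20, −0.19 and 0.15 in dorsal tissue. The groups did not overlap on these arrays, and this value differed by −0.71 on average, ventral minus dorsal. In an exact two-sided permutation test of that value over the 6 arrays, with no replicate block, p was 0.10. That is the smallest p that 3 arrays against 3 allow, and any difference without overlap gets it. The p was 0.15 after Benjamini-Hochberg adjustment over the 9 within-family differences computed.

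**Figure D2:**
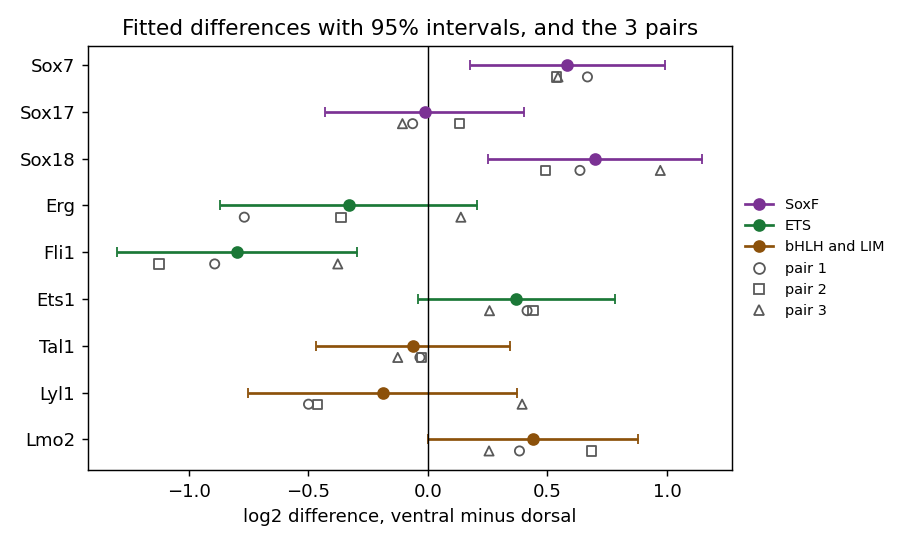
Log2 difference, ventral minus dorsal (horizontal axis), of each factor. Filled points with bars are limma estimates with 95% intervals, coloured by family, and open symbols are the 3 pairs of same-numbered arrays. The intervals of Sox7, Sox18, Fli1 and Lmo2 do not cross 0, and no adjusted p was under 0.05.

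The ETS members did not differ in one direction. Fli1, an early factor of blood and endothelium that mouse mesenchyme also expresses, stood at 7.59, 7.42 and 7.47 in ventral tissue, against 8.49, 8.54 and 7.85 in dorsal tissue. The ventral arrays lay within an SD of 0.09, while the dorsal arrays were spread by an SD of 0.39, with dorsal 3 the lowest of them. The log2 difference of Fli1 was −0.80 ± 0.21 (adjusted p = 0.228), with a 95% interval from −1.30 to −0.30, the lowest difference of the 9. Without replicate 3 it was −1.01 ± 0.24 (adjusted p = 0.215). Erg is an ETS factor of mature endothelium and is also found in forming cartilage of the mouse. It had 5.63, 5.81 and 5.68 in ventral tissue, against 6.40, 6.18 and 5.55 in dorsal tissue. Dorsal 3 lay below all 3 ventral arrays, and the other dorsal arrays lay above them. The difference of Erg was −0.33 ± 0.22 (adjusted p = 0.685), and it depended on the arrays used. It was −0.57 ± 0.24 (adjusted p = 0.555) without replicate 3 and −0.11 ± 0.25 (adjusted p = 0.954) without replicate 1. Without dorsal 1 alone, and with no block for the replicate number, it was −0.15 ± 0.24 (adjusted p = 0.938).

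Ets1, which acts in endothelium, migrating neural crest and lymphocytes, stood at 7.46, 7.61 and 7.09 in ventral tissue, against 7.04, 7.17 and 6.83 in dorsal tissue. All 3 pairs were positive (0.41, 0.44 and 0.26), but ventral 3 lay below dorsal 2. The log2 difference was 0.37 ± 0.17 (adjusted p = 0.515). In the RefSeq gene table Fli1 and Ets1 are next to each other on chromosome 9, with no other protein-coding gene in between. Within each array, Fli1 minus Ets1 was 0.14, −0.20 and 0.38 in ventral tissue, against 1.44, 1.37 and 1.02 in dorsal tissue. Ventral minus dorsal, this value differed by −1.17 with no overlap, the greatest of the 9 within-family differences (exact two-sided permutation p = 0.10, adjusted p = 0.15). Erg has Ets2 as its coding neighbour on chromosome 16, and Ets2 had a log2 difference of 0.11 ± 0.25 (adjusted p = 0.937).

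**Figure D3:**
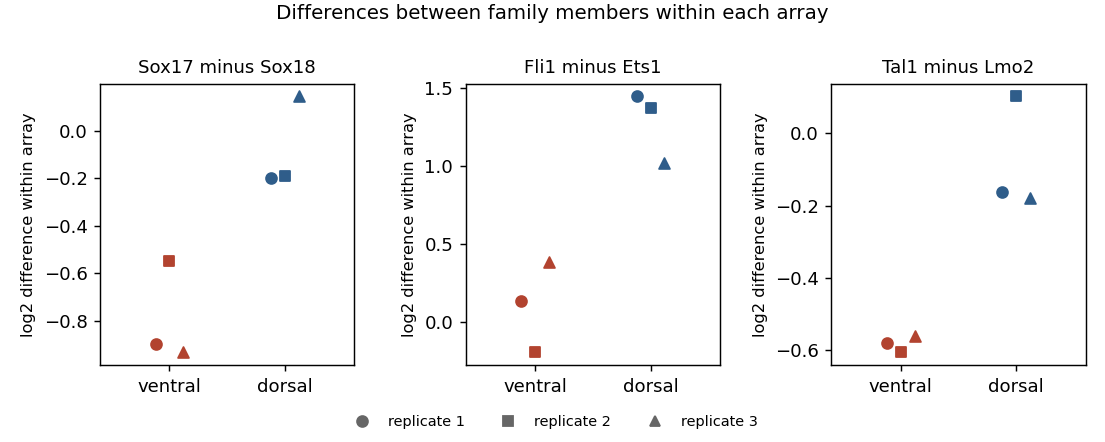
Difference in log2 level between 2 factors of 1 family on the same array (vertical axis), for ventral and dorsal arrays, with 1 point per array. Sox17 minus Sox18, Fli1 minus Ets1 and Tal1 minus Lmo2 are each lower on all 3 ventral arrays than on all 3 dorsal arrays. These were picked, 1 per family, from 9 computed. Of those not shown, Erg minus Ets1 was lower on all ventral arrays, and Sox7 minus Sox17 and Erg minus Fli1 were higher. Sox7 minus Sox18, Tal1 minus Lyl1 and Lyl1 minus Lmo2 overlapped. The height of a panel says nothing about which gene has more transcript, since probe sets differ in brightness.

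Tal1, which directs mesoderm to the blood fate, had 4.74, 4.99 and 4.75 in ventral tissue, against 4.77, 5.02 and 4.87 in dorsal tissue. Its arrays overlapped, its 3 pairs differed by −0.03, −0.03 and −0.13, and the log2 difference was −0.06 ± 0.17 (adjusted p = 0.945; 95% interval −0.47 to 0.35). Lyl1, which can stand in for Tal1 in part of its blood functions, had 4.41, 4.37 and 5.07 in ventral tissue, against 4.91, 4.83 and 4.67 in dorsal tissue. Ventral 3 was the highest of the 6 arrays and the other ventral arrays were the lowest, so the sign of the pairs was split, and the difference was −0.19 ± 0.23 (adjusted p = 0.855). Without replicate 3 the difference of Lyl1 was −0.48 ± 0.23 (adjusted p = 0.610), and without replicates 1 or 2 it was −0.03 ± 0.28 (adjusted p = 0.992) and −0.05 ± 0.30 (adjusted p = 0.985). Lmo2 stood at 5.32, 5.60 and 5.31 in ventral tissue, against 4.94, 4.92 and 5.05 in dorsal tissue. The groups did not overlap, and the log2 difference of Lmo2 was 0.44 ± 0.18 (adjusted p = 0.464), with a 95% interval whose lower end was 0.0017. Tal1 minus Lmo2 within each array was −0.58, −0.61 and −0.56 in ventral tissue, against −0.16, 0.10 and −0.18 in dorsal tissue (exact two-sided permutation p = 0.10, adjusted p = 0.15). Of the 9 within-family differences, 6 did not overlap between the tissues and had this p. They were 2 among the SoxF genes, 3 among the ETS genes and 1 among the others. Of the SoxF ones, Sox7 minus Sox17 rests on Sox7, which passed the brightness filter through its ventral values. Over the differences of any 2 genes tested, 16.6% did not overlap. The 6 share genes with each other, and 5 of them include Sox7, Sox18, Fli1 or Lmo2, whose own groups did not overlap, so they are not separate results.

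Endothelial cells are a source that the 9 genes have in common, though not the only one for Fli1, Erg and Ets1. Which cells the 9 signals came from was not tested. The defining endothelial markers were measured in both tissues. Of 18 markers 17 passed the brightness filter, and Esam (ventral mean 4.58, dorsal mean 4.26) did not. Of the 17, 16 had positive differences and 0 passed, and the median was 0.41, beside a median of −0.01 over all genes tested. For 4 of them the unadjusted p was under 0.05, all higher in ventral tissue, against 5.6% of all genes tested. The ventral direction was not particular to this list, with medians of 0.36 for macrophage and 0.72 for smooth muscle and pericyte markers. Erythroid and sclerotome markers had medians of −0.61 and −1.04. The VEGF receptor gene Kdr had a difference of 1.00 ± 0.20 (adjusted p = 0.121) and the tight-junction gene Cldn5 one of 0.70 ± 0.18 (adjusted p = 0.213). At the other end, the guidance receptor gene Robo4 had 0.02 ± 0.18 (adjusted p = 0.986) and Cd34, which codes for a sialomucin, −0.09 ± 0.18 (adjusted p = 0.929). The mean of the 17 markers, relative to each gene's own mean, ran from −0.12 to 0.42 on ventral arrays, against −0.55 to 0.15 on dorsal arrays, and overlapped. In bulk tissue, fewer cells of a type and less RNA per cell cannot be told apart.

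That mean differed by 0.37, ventral minus dorsal, and subtracting it lowers the difference of every gene by this amount. Set against the endothelial mean on each array, Sox18 and Sox7 overlapped between the tissues, with remaining differences of 0.33 and 0.21. Lmo2 and Ets1 overlapped as well, with 0.07 and −0.0039. Fli1 relative to the endothelial mean was −0.18, −0.74 and −0.84 in ventral tissue, against 1.14, 0.50 and 0.11 in dorsal tissue. Its groups stayed apart, with a difference of −1.17. Tal1 (−0.44) and Lyl1 (−0.56) did not overlap on this scale either. These 3 of 9 genes were all lower in ventral tissue, where on this scale 15.7% of all genes tested did not overlap and were lower, 0.915% did not overlap and were higher, and 16.6% did not overlap in all. Before the subtraction Tal1 and Lyl1 overlapped, with differences of −0.06 and −0.19. Their deposited levels were low, at 4.74 to 5.02 for Tal1 and 4.37 to 5.07 for Lyl1. The ventral values of 4.41 and 4.37 for Lyl1 lay below the brightness filter. Whether levels this low follow the endothelial mean was not tested. Sox17 (−0.39) and Erg (−0.71) overlapped on the relative scale. These relative values were not tested.

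Markers of the sclerotome, which forms cartilage, were lower in ventral tissue, as Fli1 was. In that list 13 of 15 genes tested had negative differences, with a median of −1.04. Those of 3 genes passed, namely the sclerotome factor gene Pax1 (−2.60 ± 0.24, adjusted p = 0.0183), the cartilage matrix gene Chad (−2.32 ± 0.21, adjusted p = 0.0183) and the collagen gene Col2a1 (−1.75 ± 0.19, adjusted p = 0.0258). All 3 ventral values of Chad (3.60, 3.94 and 3.70) lay below the brightness filter, and Chad passed it through its dorsal values. The size of its difference therefore rests on ventral values near background. The mean of the list ran from −0.71 to −0.47 on ventral arrays, against 0.22 to 0.73 on dorsal arrays. Dorsal 3 was the lowest dorsal array. Among dorsal arrays, dorsal 3 was also the lowest for the macrophage and the smooth muscle lists, and for Fli1, Erg, Ets1, Sox18 and Lyl1. It was the highest dorsal array for the neural crest and Schwann precursor, the lymphatic, and the megakaryocyte and platelet lists. In the erythroid list all 11 tested genes had negative differences (median −0.61, 0 passed). The unadjusted p was under 0.05 for 7 of them, where 5.14% of all genes tested had such a p and were lower. The 7 include Ermap, whose ventral mean of 4.37 lay below the brightness filter, and which passed it through its dorsal values. The list mean was −0.55 to −0.16 in ventral tissue, against 0.27 to 0.39 in dorsal tissue. All 13 tested macrophage genes had positive differences (median 0.36, 0 passed), with list means of −0.03 to 0.32 in ventral tissue, against −0.53 to 0.11 in dorsal tissue. None of 12 lymphocyte markers in the table passed the brightness filter. The part of these lists in the differences of Fli1, Erg, Ets1 and Lmo2 was not tested.

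**Figure D4:**
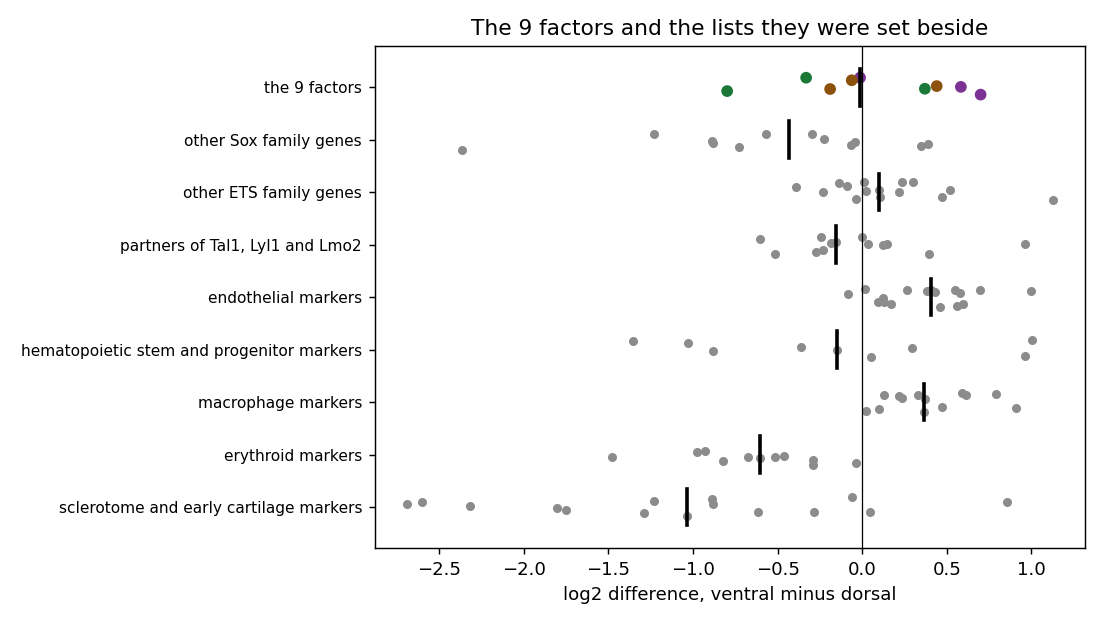
Log2 difference, ventral minus dorsal (horizontal axis), of the 9 factors (coloured by family as SoxF purple, ETS green, others brown) and of the tested genes of 8 lists (grey). Each point is a gene and black bars are medians; vertical scatter within a row has no meaning. Endothelial and macrophage markers have medians of 0.41 and 0.36, and sclerotome and erythroid markers medians of −1.04 and −0.61.

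Relatives of the members were taken as whole families. Of 15 tested further ETS genes 0 passed, 10 were positive and the median was 0.10. Elf4, an ETS factor known from lymphocytes and blood stem cells of the mouse, had 6.28, 6.57 and 6.98 in ventral tissue, against 5.58, 5.88 and 4.997 in dorsal tissue. It did not overlap and differed by 1.13 ± 0.29 (adjusted p = 0.223), and the ETS repressor gene Erf did not overlap either (0.52 ± 0.18, adjusted p = 0.377). The lowest differences were those of Etv1 (−0.39 ± 0.22, adjusted p = 0.605) and Elf2 (−0.23 ± 0.20, adjusted p = 0.770). Etv2, the ETS factor that starts the endothelial and blood programme earlier in development, lay below the brightness filter, with means of 3.38 in ventral and 3.43 in dorsal tissue.

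Of 12 tested Sox genes outside the SoxF group 0 passed, 10 were negative and the median was −0.43. The 3 SoxF genes had differences of 0.70 (Sox18), 0.58 (Sox7, near background) and −0.01 (Sox17). Sox6, a cofactor of Sox9 in cartilage, had 5.19, 5.51 and 5.44 in ventral tissue, against 6.81, 6.08 and 6.94 in dorsal tissue. It differed by −1.23 ± 0.25 (adjusted p = 0.134). Sox2, a factor of neural progenitors, differed by −2.37 ± 0.83 (adjusted p = 0.377), and dorsal 3 stood apart, at 9.69 against 5.36 and 6.50 on dorsal 1 and 2. The highest differences were 0.39 ± 0.18 for Sox8 (adjusted p = 0.525) and 0.35 ± 0.22 for Sox13 (adjusted p = 0.657).

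Of 13 tested genes whose proteins partner with Tal1, Lyl1 or Lmo2, or belong to their families, 0 passed, 5 were positive and the median was −0.16. Runx1, which hemogenic endothelium needs to release blood cells, had 5.50, 4.82 and 5.30 in ventral tissue, against 4.10, 4.86 and 3.78 in dorsal tissue. Ventral 2 lay just below dorsal 2, and the difference was 0.96 ± 0.33 (adjusted p = 0.354). The dorsal mean of Runx1, 4.25, lay below the brightness filter, and Runx1 passed it through its ventral values. Ldb2, whose protein binds LIM-domain factors, differed by 0.40 ± 0.18 (adjusted p = 0.516). The erythroid factor gene Gata1 differed by −0.51 ± 0.21 (adjusted p = 0.458) and Lmo1 by −0.60 ± 0.24 (adjusted p = 0.439). The ventral mean of Lmo1, 4.23, lay below the filter too, and Lmo1 passed it through its dorsal values. Gata2, which joins Tal1, Lyl1, Lmo2, Erg, Fli1 and Runx1 at enhancers of blood progenitors, was under the filter, with means of 4.36 in ventral and 4.31 in dorsal tissue. Of the stem and progenitor markers, Ptprc, Itga2b and Gfi1 were also under it.

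Of 30 tested endothelial genes known to be bound or driven by SoxF and ETS factors, 23 were positive and 0 passed. An unadjusted p under 0.05 was found for 9, all higher in ventral tissue, against 5.6% of all genes tested. The median was 0.35. Aplnr, the apelin receptor gene of venous and sprouting endothelium, had the highest value (1.19 ± 0.30, adjusted p = 0.208), followed by Kdr. The lowest were the Notch target gene Hey1 (−0.34 ± 0.27, adjusted p = 0.733) and Vwf, which codes for von Willebrand factor (−0.22 ± 0.28, adjusted p = 0.859). This list shares 15 tested genes with the endothelial markers, so the counts are not separate.

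The genes whose pattern was most like that of a member were found by the root-mean-square difference between log2 profiles over the 6 arrays, each centred on its own mean. For Fli1 these were Tle1 (0.11), a corepressor gene, and Lpar1 (0.11), a lysophosphatidic acid receptor gene, where the profile of Fli1 itself had a root-mean-square of 0.46. For Sox18 they were Polr3gl and Meis3 (0.10 each, own value 0.40), and for Sox7 Stard9 (0.07) and Tram1 (0.08, own value 0.30). For Lmo2 they were Sharpin and Ndufb3 (0.07 each, own value 0.24). None of these 8 genes passed the test, and their nearness describes 6 arrays only.

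**Figure D5:**
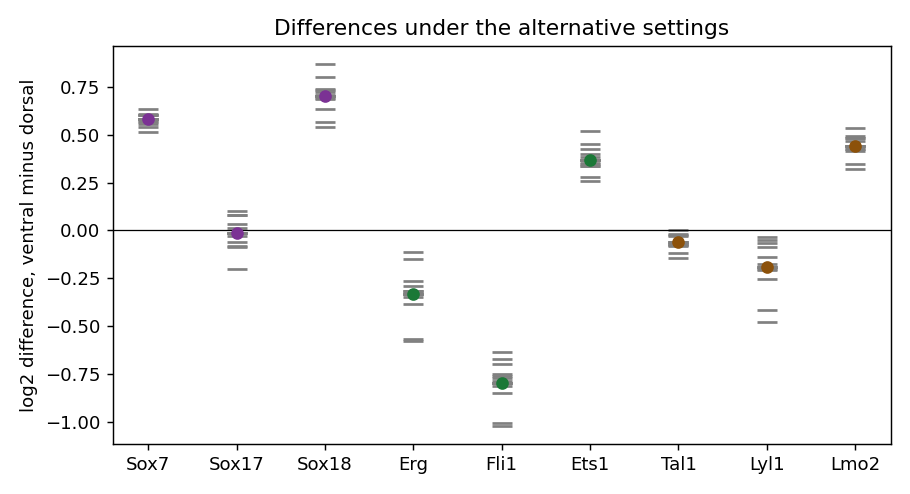
Log2 difference, ventral minus dorsal (vertical axis), of each factor as reported (filled points) and under up to 16 other settings of filter, normalization, variance model, pairing and arrays left out (grey dashes). Fli1, Erg and Lyl1 stay below 0 and Sox7, Sox18, Ets1 and Lmo2 above 0 in each setting run, while Sox17 and Tal1 cross it.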

How the data were processed

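Total RNA of microdissected tissue was amplified with the Nugen Ovation Pico V2 system and read on Affymetrix arrays, per the labels' protocols. Amplification from so little RNA can distort weak signals. The deposited values are log2 expression levels, made by the authors with Affymetrix Expression Console and RMA per the submitters' processing notes; no version or genome build is named there. Array medians were 4.49 to 4.55, and no array correlated with another by less than 0.956 across probe sets. Of 24973 probe sets, 24015 had 1 symbol in the platform table and 958 had none. Tested were the 12028 with a mean at or above 4.52, the median level of all probe sets; all 9 members passed this filter on the mean of both tissues, Sox7 through its ventral values.

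Ventral minus dorsal was fitted with limma 3.58.1 (lmFit and eBayes, under R 4.3.3), two-sided, with Benjamini-Hochberg adjustment over all genes tested, a threshold of 0.05 and the replicate number as a block. Tests had 6.41 degrees of freedom. The labels say that both tissues came from the same embryos, but not that a number marks an embryo. Deviations of same-numbered arrays correlated by 0.0992, 0.0763 and 0.226, those of others by −0.153 to 0.0805. The value of 0.0763 lay within the range of the others, so the pairing rests on the label and is hardly borne out. If arrays pooled embryos, p-values measure the spread between pools. The procedure was tested on simulated data. Members and lists were chosen with earlier results of these data known. Named were all 9 members and, per list, genes past the threshold and the 2 highest and 2 lowest differences; Ets2, Etv2, Gata2, Esam, Flt4, Ptprc, Itga2b and Gfi1 were named after their values were seen. For marker lists, the named genes are given where a result turns on them. Alternatives were the fit without the block, other filters, normalizations and variance models, and arrays left out. Promoter sequences, gene order and neighbours came from RefSeq (GRCm38.p6), and the array's own build is not known, so no gene coordinates are given beyond those of the promoter windows.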

Additional observations from a re-analysis of the deposited data

How the results depend on the processing

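In every one of 16 alternatives 0 of the tested members passed, with a lowest adjusted p of 0.0961 for Fli1, without dorsal replicate 3 and without the replicate block. Fli1 and Sox18 kept an unadjusted p under 0.05 and their direction in all 16, and over these their differences ran from −1.02 to −0.63 and from 0.54 to 0.87. Sox7 and Lmo2 kept their direction in all 15 in which they were tested, and had an unadjusted p under 0.05 in 14 and 7 of them. The count of members past that unadjusted level was 2 to 5 (4 as reported), where 8.12% to 11.4% of all genes tested were past it. It was 2 under the stricter filter, with 4 members tested, and 2 without replicate 1, with 9 members tested. Erg and Lyl1 stayed negative, from −0.58 to −0.11 and from −0.48 to −0.03. Under the stricter filter Sox18, Erg, Fli1 and Ets1 alone were tested. The direction of Sox17 turned in 5 alternatives, all of them with arrays left out, where its difference reached 0.10. Its adjusted p was 0.966 to 0.996 without one replicate and 0.937, 0.959 and 0.947 without dorsal 2, ventral 1 or ventral 3 and no block; Tal1 turned once, to 0.0035 (adjusted p = 0.997), without dorsal replicate 2. The cause was not tested. The 4 members whose groups did not overlap also numbered 4 after shifting arrays to the same median and after cyclic loess. The share of all genes without overlap was not computed for these settings.

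Without the replicate block, 59 genes passed in place of 62 and no member changed its call (Fli1 adjusted p = 0.229, Sox18 0.264, Sox7 0.217, Lmo2 0.404). Without the brightness filter 10 genes passed over 24015 tested, and with a trended variance 94 passed. Leaving out a replicate gave 48 to 75 genes with the block. Without the block, 12, 23 and 40 genes passed without dorsal 1, 2 and 3, and 104, 13 and 18 without ventral 1, 2 and 3.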

Other observations

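Of 5 lymphatic marker genes 4 were tested, and none passed in limma. The venous and lymphatic factor gene Nr2f2 had 7.68, 8.86 and 8.45 in ventral tissue, against 6.48, 5.63 and 6.75 in dorsal tissue, a log2 difference of 2.04 ± 0.38 (adjusted p = 0.113) with no overlap. Nr2f2 is also expressed in visceral mesenchyme of the mouse. Lyve1, a hyaluronan receptor gene of lymphatic cells and macrophages, differed by 0.79 ± 0.17 (adjusted p = 0.158), and the podoplanin gene Pdpn by −1.23 ± 0.29 (adjusted p = 0.189). Prox1, the Sox18 target, had 4.29, 5.39 and 5.39 in ventral tissue, against 5.20, 4.16 and 4.73 in dorsal tissue, which overlapped (0.32 ± 0.39, adjusted p = 0.854). Of these 4 genes 3 had an unadjusted p under 0.05, 2 higher and 1 lower in ventral tissue, where 10.7% of all genes tested did. Flt4, the receptor gene of lymphatic growth factors, lay below the brightness filter, with means of 4.75 in ventral and 4.27 in dorsal tissue.

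Among stem and progenitor markers, the receptor gene Kit did not overlap between the tissues and was higher in ventral tissue (1.01 ± 0.19, adjusted p = 0.118). Myb did not overlap either and was lower there (−1.03 ± 0.18, adjusted p = 0.0873). The ventral mean of Myb, 4.42, lay below the brightness filter, and Myb passed it through its dorsal values. Mecom had 6.20, 5.28 and 4.72 in ventral tissue, against 7.58, 6.92 and 5.75 in dorsal tissue, lower in all 3 pairs (−1.35 ± 0.19, adjusted p = 0.0583, and 0.416 without the replicate block). Of 9 tested genes of that list 0 passed and the median was −0.15. Of the 4 tested megakaryocyte and platelet genes 0 passed, and Pf4 was higher on the replicate 3 arrays of both tissues (8.36 in ventral and 8.18 in dorsal tissue) than on the other arrays (5.66 and 6.50 in ventral, 6.07 and 6.04 in dorsal tissue). Of 7 tested neural crest and Schwann precursor genes, Ets1 among them, 0 passed and 5 were negative (median −0.31). Of 12 smooth muscle and pericyte genes 11 were positive (median 0.72), and Rgs5 rose in ventral tissue (2.18 ± 0.24, adjusted p = 0.0258, and 0.0732 without the replicate block).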
